A study of Mus musculus with 6 samples.

Results

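Mitochondrial ribosomal proteins, the protein components of the ribosome that works inside the mitochondrion, were taken as every row of the expression table whose gene symbol is Mrpl or Mrps followed by a digit. This gave 78 of the 16880 listed genes, 49 with an Mrpl and 29 with an Mrps symbol. The rule uses symbols alone and no measured value, though it was set with earlier results of these data known. RNA was sequenced from cells labelled ATDC5, a mouse chondrogenic line, kept with IL-1β at 10 ng/mL alone (IL, 3 libraries) or with the same dose of IL-1β and NP-G2-044 at 10 μmol/L (ILN, 3 libraries), and the methods give 24 h of treatment. IL-1β is a cytokine of inflammation, and the small molecule NP-G2-044 inhibits fascin1 (FSCN1), a protein that bundles actin. Both groups received IL-1β, so every difference given here is between the cytokine with and without the inhibitor, and cells without IL-1β were not analysed here. The methods describe primary chondrocytes from mouse cartilage where the labels name the ATDC5 line, and the treatment field of the ILN libraries reads NP-G2-047 where their titles read NP-G2-044. The methods call the 3 libraries of a group biological replicates, and neither they nor the labels say what was replicated, so p-values measure the spread between these libraries.

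The libraries held 16615824 to 17735860 counted reads, and the 3 libraries of a group lay close together, with a common biological coefficient of variation of 2.33%. Of 14 chondrocyte markers, 10 were in the table and only Sox9, Sox5 and Col11a2 exceeded 1 TPM in any library (transcript abundance scaled for gene length and library depth), while Col2a1, the collagen that defines cartilage, was at 0.02 to 0.24 TPM. The summed chondrocyte markers were at 22.46 to 23.33 TPM in IL and 17.66 to 18.39 TPM in ILN, with Sox9 higher (5.94 to 7.21 and 11.31 to 11.42 TPM) and Sox5 lower (10.18 to 10.33 and 2.03 to 2.52 TPM) in ILN. The summed fibroblast markers, with 6 of 8 above 1 TPM, were at 1138.57 to 1184.55 and 357.03 to 373.29 TPM, most of it from Col1a2 (1082.42 to 1129.53 and 325.01 to 338.28 TPM), while Pdgfra went the other way (2.16 to 2.69 and 8.49 to 9.03 TPM). The macrophage and leukocyte list was at 23.47 to 24.39 TPM in IL and 128.52 to 139.9 TPM in ILN, most of the latter from Cd68. Cd14 went the other way (10.29 to 13.27 and 4.50 to 5.09 TPM). The pan-leukocyte gene Ptprc was listed at 0 in all libraries and Csf1r at 0.10 to 0.31 TPM. Endothelial, muscle and adipocyte lists stayed at or below 5.09 TPM in every library. What these shifts contribute to the values below was not tested, and in such bulk RNA fewer cells of a kind and less RNA per cell cannot be told apart.

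The mitochondrial ribosome translates the few messenger RNAs that mitochondrial DNA encodes, all of them for subunits of the respiratory chain and ATP synthase. Its small subunit reads the messenger RNA and its large subunit joins the amino acids. Every one of its proteins is encoded in the nucleus, made in the cytosol and imported, whereas its RNAs are transcribed inside the organelle. Many of the proteins descend from those of bacterial ribosomes, and others were added in mitochondria. The numbering of the symbols is historical, so the products of Mrps30 and Mrps18a sit in the large subunit, and that of Mrps36 is now assigned to the 2-oxoglutarate dehydrogenase complex of the citric acid cycle. With these placements the members comprised 51 large subunit genes, 26 small subunit genes and Mrps36.

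The genes are scattered over the genome and are held to share promoter features, of which the binding sites of NRF1, of ETS factors such as GABP and of YY1 are the best known. RefSeq promoters of GRCm38.p6, from 250 bases before to 50 bases after a start, were at hand for 69 of the 78 members. An ETS motif (CCGGAAG, either strand) was found in 26 of the 69 (37.7%), against 9.9% of all 27025 genes with a promoter and 20.7% of the 9635 of them that were tested for expression. The NRF1 motif (GCGCATGCG) was found in 10.1% of the members against 2.0% and 4.3%, and the YY1 motif (AAGATGGCG) in 11.6% against 1.6% and 3.7%. The Sp1 motif (GGGCGG) was found in 49.3% of the members against 38.2% and 69.6%, the cAMP response element (TGACGTCA) in 2.9% against 2.0% and 3.6%, and the ATF4-CEBP composite (TGATGNAAT) in 0 of 69 against 1.1% and 0.6%. A match says only that these letters stand in the window.

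To show these features, 4 promoters are printed from 250 bases before to 30 bases from the start on, in the sense of the gene, with motif matches in capitals. Mrps18b, the largest rise, is on the minus strand at chr17:35916411-35916690 and held 1 NRF1 match and 2 Sp1 matches, the latter both on the opposite strand as CCGCCC, and its ETS match does not lie within the printed stretch. Mrpl18, the largest fall, is on the minus strand at chr17:12916062-12916341 and held 1 ETS match and 1 Sp1 match. Mrps18a, on the plus strand at chr17:46110754-46111033, held an ETS and a YY1 match. Mrpl32, on the minus strand at chr13:14613008-14613287, is shown for its 3 NRF1 matches, of which 2 overlap on opposite strands in the first capital run, beside 1 Sp1 match.
Mrps18b: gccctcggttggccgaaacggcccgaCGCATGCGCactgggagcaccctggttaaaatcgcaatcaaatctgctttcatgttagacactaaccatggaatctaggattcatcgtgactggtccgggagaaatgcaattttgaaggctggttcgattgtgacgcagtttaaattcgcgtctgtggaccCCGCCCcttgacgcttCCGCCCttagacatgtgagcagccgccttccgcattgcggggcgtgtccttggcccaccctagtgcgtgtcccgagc
Mrpl18: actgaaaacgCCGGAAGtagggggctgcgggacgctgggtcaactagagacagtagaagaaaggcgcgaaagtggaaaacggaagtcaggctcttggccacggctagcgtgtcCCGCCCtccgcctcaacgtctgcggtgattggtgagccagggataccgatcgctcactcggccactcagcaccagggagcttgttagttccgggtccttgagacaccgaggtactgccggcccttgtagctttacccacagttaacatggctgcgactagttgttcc
Mrps18a: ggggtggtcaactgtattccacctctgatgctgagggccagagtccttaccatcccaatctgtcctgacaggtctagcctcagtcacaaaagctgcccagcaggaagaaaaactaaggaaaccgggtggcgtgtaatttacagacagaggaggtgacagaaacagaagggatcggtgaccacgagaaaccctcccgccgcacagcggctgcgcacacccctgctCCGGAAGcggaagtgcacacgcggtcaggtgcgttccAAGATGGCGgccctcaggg
Mrpl32: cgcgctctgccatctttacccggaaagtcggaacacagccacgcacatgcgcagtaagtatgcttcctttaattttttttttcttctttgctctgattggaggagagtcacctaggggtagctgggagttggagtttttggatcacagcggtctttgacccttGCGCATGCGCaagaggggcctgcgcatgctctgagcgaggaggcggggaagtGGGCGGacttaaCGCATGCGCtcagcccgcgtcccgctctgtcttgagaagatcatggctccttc
Of the 26 members with an ETS match 13 rose and 6 fell with NP-G2-044 (median log2 fold change 0.15), and of the 43 without 21 rose and 12 fell (median 0.11). Of the 7 with an NRF1 match 5 rose and 1 fell (median 0.18), and of the 62 without 29 rose and 17 fell (median 0.09). Of the 8 with a YY1 match 3 rose and 1 fell (median 0.10), and of the 61 without 31 rose and 17 fell (median 0.12). Over all tested genes 40.2% rose and 39.8% fell, at an adjusted p below 0.05 (edgeR). These medians are descriptions of small groups and were not tested.

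All 78 members were expressed in every library and passed the filter on low counts, the lowest single value being 101 reads. Their median level was 89.3 TPM and every mean was above 10 TPM. With NP-G2-044, 39 members rose and 20 fell at an adjusted p below 0.05 (quasi-likelihood test of edgeR, Benjamini-Hochberg over 11983 genes), and 19 did not pass. The 2 groups differed across most of the transcriptome, with 80.0% of all tested genes called, so that the 75.6% of members called was near the background. By direction the members were less balanced than the genes at large, with 39 of 78 higher against 40.2% of all genes, and 20 of 78 (25.6%) lower against 39.8%. Against a fold change of at least 1.2 in place of 0, 17 of 78 members were higher and 7 lower, where 25.4% of all genes were higher and 27.4% lower, so that by this test the higher share of the members was not above that of all genes.

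The changes were small. The median log2 fold change of the members was 0.10, the interquartile range was −0.13 to 0.30, and the range was −0.72 to 1.03. Over all tested genes the median was 0.0018 and the interquartile range −0.43 to 0.36. Of the 78 members, 70 (89.7%) lay within 0.5 of no change on the log2 scale, against 59.7% of all tested genes. The 2 sets differ in level, with a median of 89.3 TPM over the members and 22.62 TPM over all tested genes. The members were not compared with genes of like level. Only Mrps18b passed both cutoffs of the study, adjusted p below 0.05 with a change of more than 1 on the log2 scale, which 16.6% of all tested genes did, and it did not pass when log2 TPM values were fitted with limma. The TPM ranges of IL and ILN did not overlap for 56 members (71.8%), against 79.4% of all tested genes.

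**Figure D1:**
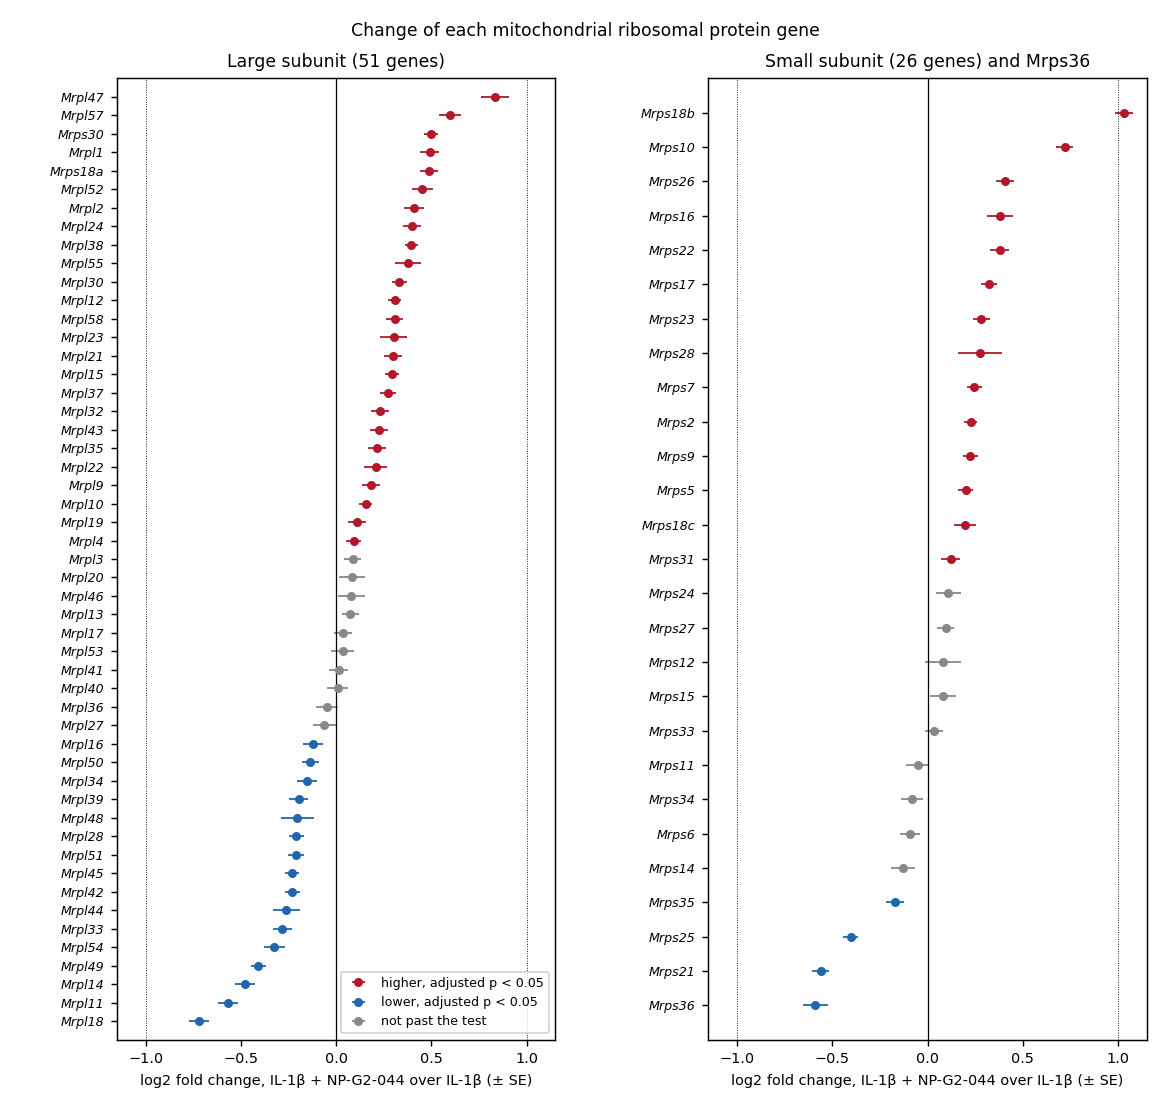
Log2 fold change (ILN over IL, x axis) with its standard error for each of the 78 members (y axis, sorted), large subunit on the left, small subunit and Mrps36 on the right; red marks members higher and blue members lower at an adjusted p below 0.05, grey those not past the test, and dotted lines a log2 fold change of 1 in either direction. Most points lie within 0.5 of 0, and Mrps18b alone passes the dotted line.

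Summed over the members, the level was 8044.2, 7914.5 and 8055.7 TPM in the IL libraries and 8208.6, 8395.9 and 8390.9 TPM in the ILN libraries. Every ILN sum was above every IL sum, and the means, 8004.8 ± 78.4 and 8331.8 ± 106.7 TPM (SD, n = 3 each), gave a ratio of 1.04. On CPM (counts scaled for library depth), which do not scale for gene length, the ratio was 1.08. The small subunit went from 2330.7 ± 24.6 to 2482.6 ± 13.1 TPM and the large subunit from 5561.3 ± 58.7 to 5775.0 ± 112.5 TPM (SD, n = 3 each).

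Of the 26 small subunit genes, 14 rose (53.8%) and 3 fell (11.5%, Mrps21, Mrps25 and Mrps35), with a median log2 fold change of 0.16. Of the 51 large subunit genes, 25 rose (49.0%) and 16 fell (31.4%), with a median of 0.09. Over all tested genes 40.2% rose and 39.8% fell. Among the 46 members with a counterpart in bacterial ribosomes 26 rose (56.5%) and 8 fell (17.4%), with a median of 0.17. Among the 31 classed as mitochondria-specific 13 rose (41.9%) and 11 fell (35.5%), with a median of 0.04. Mrps18a and Mrps18b are in the latter class, since of the S18 relatives only Mrps18c is named as the counterpart of the bacterial protein. The summed level of the mitochondria-specific members, 2962.9 ± 48.1 TPM in IL and 3208.5 ± 46.6 TPM in ILN, moved further than that of the bacterial type, 4929.1 ± 51.0 and 5049.1 ± 59.0 TPM (SD, n = 3 each). The count and the sum thus order these classes differently, and the differences between subunits and between classes were not tested. With a filter that asked for 10 CPM or more in 3 libraries, and left 77 members, the median was 0.07 over the members and 0.09 over the small subunit.

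The S18 proteins are 3 paralogues related to 1 bacterial small subunit protein, with the products of Mrps18b and Mrps18c in the small subunit and that of Mrps18a in the large. Mrps18b (Entrez 66973, chr17:35910379-35916389, minus strand, mm10) was at 67.22, 67.89 and 67.65 TPM in IL and at 128.67, 138.66 and 137.98 TPM in ILN. The lowest ILN library was far above the highest IL library. Its log2 fold change was 1.03 (SE 0.05, adjusted p = 6.61e-27, edgeR), a rise of 104%. Its exons share 638 bases with those of Gm16279 on the opposite strand, and no source used here gives whether counting used strand.

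Mrps18a (Entrez 68565, chr17:46110986-46128910, plus strand) was at 96.45, 106.18 and 98.82 TPM in IL and at 136.09, 140.74 and 139.91 TPM in ILN, without overlap. Its log2 fold change was 0.49 (SE 0.05, adjusted p = 2.22e-13, edgeR). Mrps18c (Entrez 68735, chr5:100798627-100804471, plus strand) was at 184.12, 204.93 and 219.17 TPM in IL and at 246.82, 231.46 and 216.79 TPM in ILN. Its groups overlapped in TPM, since the lowest ILN library lay below the highest IL library, and its log2 fold change was 0.20 (SE 0.06, adjusted p = 0.00234, edgeR). All 3 paralogues thus rose, the most abundant of them least.

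Near the exit of the tunnel through which the new protein leaves the large subunit, 4 of 6 genes rose (Mrpl22, Mrpl23, Mrpl24 and Mrpl47) and 1 fell (Mrpl45), with a median log2 fold change of 0.25. This group and the others by place in the ribosome were written from background knowledge after the values had been seen, and none was tested as a group. Each holds few genes, and over all tested genes 40.2% rose and 39.8% fell. Mrpl47 (Entrez 74600, chr3:32725397-32737605, minus strand), the relative of bacterial L29 at the exit, was at 36.89, 33.22 and 36.64 TPM in IL and at 62.72, 60.49 and 64.32 TPM in ILN. The groups were well apart, and the log2 fold change was 0.83 (SE 0.07, adjusted p = 7.02e-15, edgeR). Its exons share 616 bases with Ndufb5 on the opposite strand, a complex I gene whose own log2 fold change was −0.15.

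Another member of that region, Mrpl17, was the least abundant of all, at 12.50, 11.91 and 11.46 TPM in IL and at 11.35, 12.17 and 12.37 TPM in ILN. Its groups overlapped fully, and its log2 fold change of 0.04 had a 95% interval of −0.06 to 0.13 and did not pass the test (adjusted p = 0.503, edgeR).

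The stalk of the large subunit recruits the translation factors, and its genes went both ways. Mrpl12, whose product forms the mobile stalk, was at 260.97, 255.91 and 259.81 TPM in IL and at 315.11, 322.60 and 307.63 TPM in ILN. It did not overlap between groups and rose by a log2 fold change of 0.31 (SE 0.03, adjusted p = 5.47e-12, edgeR). Mrpl10, which anchors the stalk, was at 127.30, 123.23 and 126.79 TPM in IL and at 138.05, 137.63 and 137.14 TPM in ILN, a log2 fold change of 0.16 (SE 0.03, adjusted p = 4.45e-05, edgeR).

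Mrpl11 (Entrez 66419, chr19:4962147-4966999, plus strand), the protein at the base of the stalk, was at 25.98, 25.90 and 25.64 TPM in IL and at 16.16, 17.86 and 17.22 TPM in ILN. Every ILN value was below every IL value, and its log2 fold change was −0.57 (SE 0.05, adjusted p = 5.34e-14, edgeR). It was also the least abundant of the stalk genes. Mrpl54, a mitochondria-specific neighbour, fell by 0.32 on the log2 scale (adjusted p = 7.47e-07, edgeR), from a mean of 192.19 to 152.45 TPM. Mrpl53, the other such neighbour, stood at 136.20 ± 8.13 and 138.36 ± 5.39 TPM (SD, n = 3 each), with a log2 fold change of 0.03 and an interval of −0.08 to 0.15.

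The central protuberance sits on top of the large subunit, and 2 of its 6 genes rose (Mrpl38 and Mrpl58) and 2 fell (Mrpl18 and Mrpl48). Mrpl18 (Entrez 67681, chr17:12911349-12916345, minus strand), one of its proteins with a bacterial counterpart, was at 120.02, 122.18 and 116.13 TPM in IL and at 65.25, 70.09 and 74.39 TPM in ILN. All ILN libraries were below all IL libraries, and the log2 fold change, −0.72 (SE 0.05, adjusted p = 2.69e-18, edgeR), was the largest fall among the members. Its counts were not whole in any of the 6 libraries, so the quantification had divided reads, and its exons share 141 bases with Tcp1 on the opposite strand.

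Mrpl48 and Mrpl40, mitochondria-specific proteins of the same structure, moved little. Mrpl48 was at 15.69, 18.10 and 15.61 TPM in IL and at 14.45, 16.45 and 14.51 TPM in ILN. Its groups overlapped and its log2 fold change was −0.20 (SE 0.09, adjusted p = 0.0267, edgeR). That call did not hold when either IL 1, IL 2, ILN 1 or ILN 3 was left out, nor in some of the other refits. Mrpl40 was at 73.31, 68.44 and 73.89 TPM in IL and at 69.01, 75.23 and 69.06 TPM in ILN, and had the log2 fold change nearest to 0 of all members, 0.0089 with an interval of −0.10 to 0.12.

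Of 5 genes listed for the head of the small subunit 3 rose (Mrps7, Mrps9 and Mrps10), and Mrps14 and Mrps24 did not pass the test. All 5 have a bacterial counterpart, and the list holds no mitochondria-specific protein, so it does not stand for the whole head. Mrps10 (Entrez 64657, chr17:47368887-47381417, plus strand), the relative of bacterial S10, was at 71.29, 62.91 and 68.13 TPM in IL and at 108.21, 113.82 and 110.83 TPM in ILN. The groups were apart and the log2 fold change was 0.72 (SE 0.05, adjusted p = 3.74e-20, edgeR). Mrps21 (Entrez 66292, chr3:95862634-95871519, minus strand), which lies outside the head and is the most abundant small subunit gene here, was at 401.25, 406.67 and 427.99 TPM in IL and at 284.82, 280.39 and 269.79 TPM in ILN. Every ILN library was below every IL library, and it fell by 0.56 on the log2 scale (SE 0.05, adjusted p = 7.51e-16, edgeR).

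Beside the site where peptide bonds form, Mrpl2 and Mrpl4 rose, by 0.41 and 0.09 on the log2 scale, Mrpl16 fell by 0.12, and Mrpl3 did not pass the test at 0.09 (adjusted p = 0.0246 for Mrpl4, 0.036 for Mrpl16 and 0.0584 for Mrpl3, edgeR). The TPM ranges of Mrpl4 overlapped between groups, and with 1 library left out its log2 fold change ranged from 0.06 to 0.14.

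Further large subunit genes with large changes included Mrpl57 (chr14:57826234-57829296, plus strand), a small mitochondria-specific protein, at 17.16, 19.41 and 18.50 TPM in IL and 27.12, 27.23 and 27.22 TPM in ILN. The ILN values were almost identical and all above IL, with a log2 fold change of 0.60 (SE 0.06, adjusted p = 1.52e-13, edgeR). Mrps30 (chr13:118378381-118387252, minus strand), whose product belongs to the large subunit, was at 96.26, 94.39 and 92.28 TPM in IL and at 130.65, 131.33 and 129.82 TPM in ILN, a log2 fold change of 0.50 (SE 0.04, adjusted p = 6.36e-18, edgeR), and shares 623 exon bases with B430218F22Rik on the opposite strand. Mrpl1, the relative of bacterial L1, was at 26.96, 25.83 and 30.28 TPM in IL and at 41.74, 45.61 and 44.71 TPM in ILN. Its log2 fold change, fitted on counts, was 0.49 (SE 0.05, adjusted p = 3.8e-13, edgeR), a fold of 1.405. The mean TPM of Mrpl1 rose further than that, from 27.69 to 44.02, and why was not tested. Mrpl57, Mrps30 and Mrpl1 did not overlap between groups.

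Mrpl14 (chr17:45686322-45698495, plus strand), a protein of the face that meets the small subunit, was at 208.91, 190.48 and 207.60 TPM in IL and at 139.59, 150.30 and 140.74 TPM in ILN. It fell without overlap, by 0.48 on the log2 scale (SE 0.05, adjusted p = 9e-12, edgeR), and shares 106 exon bases with Tmem63b on the opposite strand. Mrpl49, a mitochondria-specific protein, was at 98.54, 98.23 and 94.75 TPM in IL and at 73.71, 70.82 and 70.69 TPM in ILN, and fell by 0.41 (SE 0.04, adjusted p = 8.42e-14, edgeR).

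Mrps36 (chr13:100735955-100744659, minus strand), the member whose product now counts with the citric acid cycle, was at 121.54, 112.88 and 104.02 TPM in IL and at 72.73, 74.55 and 75.28 TPM in ILN. It fell by 0.59 on the log2 scale (SE 0.06, adjusted p = 9.87e-12, edgeR), the second largest fall. Without it the median over the members was 0.11.

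**Figure D2:**
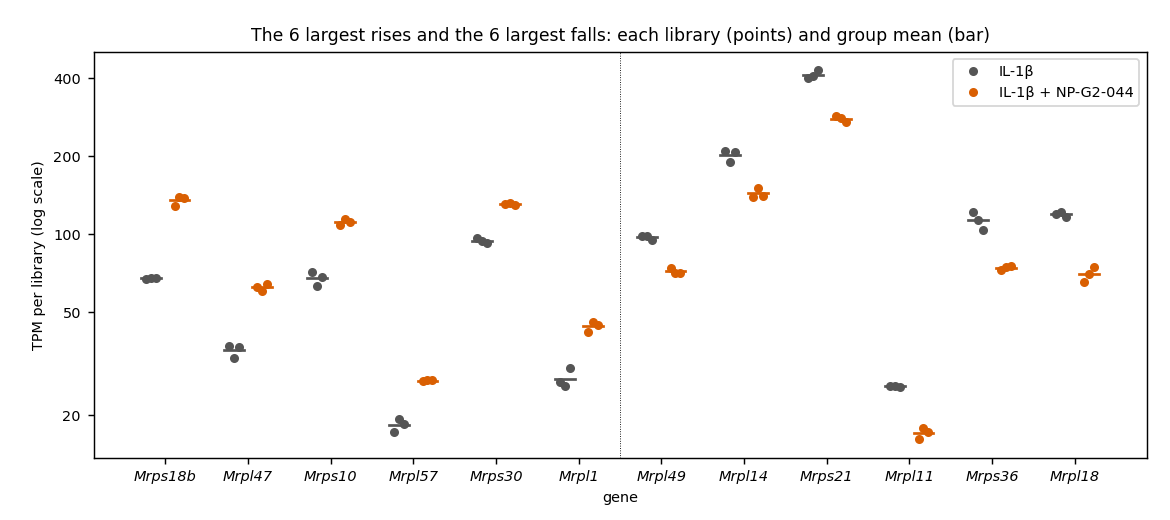
TPM on a log scale (y axis) in each library (points) and the group mean (bar) for the 6 largest rises and the 6 largest falls (x axis), IL in grey and ILN in orange. For all 12 genes the 3 points of one group lie clear of those of the other.

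Levels spanned from a mean of 11.96 TPM for Mrpl17 to 450.1 TPM for Mrpl33. Mrpl33, a small protein with a bacterial counterpart, was at 479.38, 491.47 and 512.02 TPM in IL and at 367.94, 405.23 and 444.45 TPM in ILN. It fell by 0.28 on the log2 scale (SE 0.05, adjusted p = 1.87e-06, edgeR). Mrpl52, next in level and mitochondria-specific, rose by 0.45 (SE 0.06, adjusted p = 1.94e-10, edgeR), from 333.72, 312.58 and 340.00 TPM to 436.33, 482.79 and 432.86 TPM.

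The 4 most abundant members therefore went both ways, since Mrps21 and Mrpl42 also fell. Mrpl42, mitochondria-specific as well, was at 380.42, 357.36 and 365.17 TPM in IL and at 306.54, 300.67 and 322.98 TPM in ILN, a fall of 0.23 (adjusted p = 5.77e-07, edgeR). Mrpl33 ranked first in IL and second, behind Mrpl52, in ILN by group mean.

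At the low end, beside Mrpl17, Mrpl48 and Mrpl11, Mrpl19 was at 15.33, 14.32 and 14.99 TPM in IL and at 15.97, 16.01 and 15.18 TPM in ILN. The groups overlapped, and its rise of 0.11 (SE 0.05, adjusted p = 0.0292, edgeR) was lost when IL 2, IL 3, ILN 1 or ILN 2 was left out, with the 10 CPM filter, in DESeq2 and with limma on log2 TPM. Mrpl41, a mitochondria-specific protein, was at 29.65, 31.40 and 28.79 TPM in IL and at 30.01, 29.64 and 29.03 TPM in ILN, with a log2 fold change of 0.01 and an interval of −0.08 to 0.11.

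Of the 59 called members, 52 kept their call in all 15 refits with another scaling, filter, tool or set of libraries, 35 of them higher and 17 lower. These refits called from 62.5% (no filter) to 83.9% (10 CPM filter) of all tested genes. The share of all called genes that kept their call is not given here, so the 52 cannot be set against it. Exons of 33 members share bases with those of another gene in GENCODE vM21, and 70 members had whole counts in all libraries.

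Of the 5 mitochondrial ribosomal proteins that carry other names 1 rose and 2 fell, where 40.2% of all tested genes rose and 39.8% fell. The list is too short for its counts to be told apart from these shares, and it was not tested as a group. Chchd1 rose (log2 fold change 0.37, SE 0.06, adjusted p = 3.85e-07, edgeR), from 131.36, 123.19 and 111.51 TPM to 154.24, 160.76 and 155.93 TPM. Gadd45gip1 fell by 0.35 (SE 0.05, adjusted p = 6.96e-09, edgeR) from 63.07, 61.90 and 59.30 TPM to 47.93, 43.59 and 50.04 TPM, and Ptcd3, which lies where messenger RNA enters, fell by 0.19 (SE 0.03, adjusted p = 1.44e-06, edgeR). The GTP-binding Dap3 and Aurkaip1 had log2 fold changes of −0.01 and −0.03 and did not pass the test.

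Genes that build the mitochondrial ribosome mostly rose. Of 26 assembly factors and ribosomal RNA modifying enzymes 17 rose (65.4%) and 2 fell (7.7%), against 40.2% and 39.8% of all tested genes. Their median log2 fold change was 0.23, and their summed level went from 684.7 ± 2.0 to 833.6 ± 3.7 TPM (SD, n = 3 each). The pseudouridine synthase Rpusd3 rose most, from 16.43, 15.11 and 13.32 TPM to 28.15, 29.33 and 30.46 TPM (log2 fold change 1.00, SE 0.09, adjusted p = 3.21e-15, edgeR). The ribosomal RNA methyltransferase Mrm2 fell most, from 18.36, 18.51 and 18.40 TPM to 12.74, 11.72 and 14.17 TPM (a fall of 0.49, SE 0.09, adjusted p = 2.89e-06, edgeR).

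Of 15 genes for translation factors and messenger RNA handling, 6 rose (40.0%) and 4 fell (26.7%), against 40.2% and 39.8% of all tested genes (median 0.07). The largest rise and the largest fall were the partners of 1 complex that keeps mitochondrial messenger RNAs stable. That rise, at 0.505, was barely above those of Tsfm at 0.5013 and Gfm2 at 0.5007, by less than their standard errors. Lrpprc rose from 50.80, 53.15 and 52.57 TPM to 76.54, 74.50 and 73.56 TPM (log2 fold change 0.50, SE 0.03, adjusted p = 6.99e-21, edgeR), and Slirp fell by 0.67 (SE 0.07, adjusted p = 3.15e-12, edgeR) from 252.21, 268.13 and 257.20 TPM to 174.40, 159.96 and 154.49 TPM. A like pair, named after its values were seen, was the elongation factor Tufm, which fell by 0.54 (SE 0.04, adjusted p = 2.13e-17, edgeR), and its nucleotide exchange factor Tsfm, which rose by 0.50 (SE 0.05, adjusted p = 1.98e-13, edgeR).

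Of 19 genes for tRNA synthetases that serve mitochondria 6 rose and 6 fell (31.6% each, median −0.06), against 40.2% and 39.8% of all tested genes. Gars, which makes both the cytosolic and the mitochondrial glycyl enzyme, was at 209.26, 212.50 and 209.03 TPM in IL and at 656.76, 656.85 and 655.62 TPM in ILN (log2 fold change 1.67, SE 0.03, adjusted p = 1.28e-46, edgeR). Of 11 genes for the upkeep and transcription of mitochondrial DNA 5 rose (45.5%) and 2 fell (18.2%), with a median of 0.13. They ranged from Tefm, a transcription elongation factor, at 0.35 (adjusted p = 0.00165, edgeR) to Mterf2 at −0.64 (adjusted p = 2.46e-10, edgeR). When log2 TPM values were fitted with limma, 3 of the 11 rose, where 36.9% to 37.0% of all tested genes did. Genes encoded by mitochondrial DNA itself were searched for by symbol and none was among the listed genes, so their messenger RNAs could not be analysed here.

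Among 10 regulators linked to these promoters or to mitochondrial content 4 rose and 4 fell (40.0% each), against 40.2% and 39.8% of all tested genes. Gabpb2, a subunit of the ETS factor GABP, fell by 0.50 (SE 0.04, adjusted p = 2.38e-12, edgeR), from 21.87, 23.71 and 25.93 TPM to 17.09, 15.56 and 15.97 TPM. The coactivator Ppargc1a had the largest fold change (log2 2.75, SE 0.40, adjusted p = 1.43e-08, edgeR) but at a level of 0.06 to 0.09 TPM in IL and 0.22 to 0.44 TPM in ILN. Messenger RNAs of factors that bind the NRF1, ETS and YY1 motifs fell, with log2 fold changes of −0.17 for Nrf1 (adjusted p = 0.000895), −0.18 for Gabpa (adjusted p = 8.54e-05) and −0.42 for Yy1 (adjusted p = 3.38e-14, all edgeR). These 3 were named after their values were seen. Other regulators of the list rose, Myc by 0.49 (adjusted p = 3.51e-22), Pprc1 by 0.40 (adjusted p = 3.45e-17) and Ppargc1b by 1.13 (adjusted p = 3.14e-07, all edgeR). Myc was at a mean of 249.05 TPM in IL and 342.97 TPM in ILN, and Ppargc1b at 0.27 and 0.59 TPM. Gabpb1, another GABP subunit, and Esrra did not pass the test.

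Of 79 tested cytosolic ribosomal protein genes 45 rose (57.0%) and 13 fell (16.5%), against 40.2% and 39.8% of all tested genes. Their median of 0.12 was close to that of the members, and 98.7% of them lay within 0.5 of no change against 89.7% of the members. Rpl12 rose most (log2 fold change 0.57, SE 0.04, adjusted p = 2.51e-09, edgeR) and Rpl37a fell most (−0.42, SE 0.03, adjusted p = 2.09e-17, edgeR). The products of nuclear genes for the respiratory chain and ATP synthase, those of complex II apart, join proteins made on the mitochondrial ribosome. Of 78 such genes, complex II included, 13 rose (16.7%) and 47 fell (60.3%), with a median of −0.17. Their summed level went from 33749.2 ± 383.6 to 28689.4 ± 122.0 TPM (SD, n = 3 each), a ratio of 0.85, where that of the members was 1.04. Extremes were 2 complex III genes, Uqcrq at 1.18 (SE 0.03, adjusted p = 2.87e-35, edgeR) and Uqcrh at −1.09 (SE 0.05, adjusted p = 5.2e-24, edgeR). The difference between lists was not tested.

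**Figure D3:**
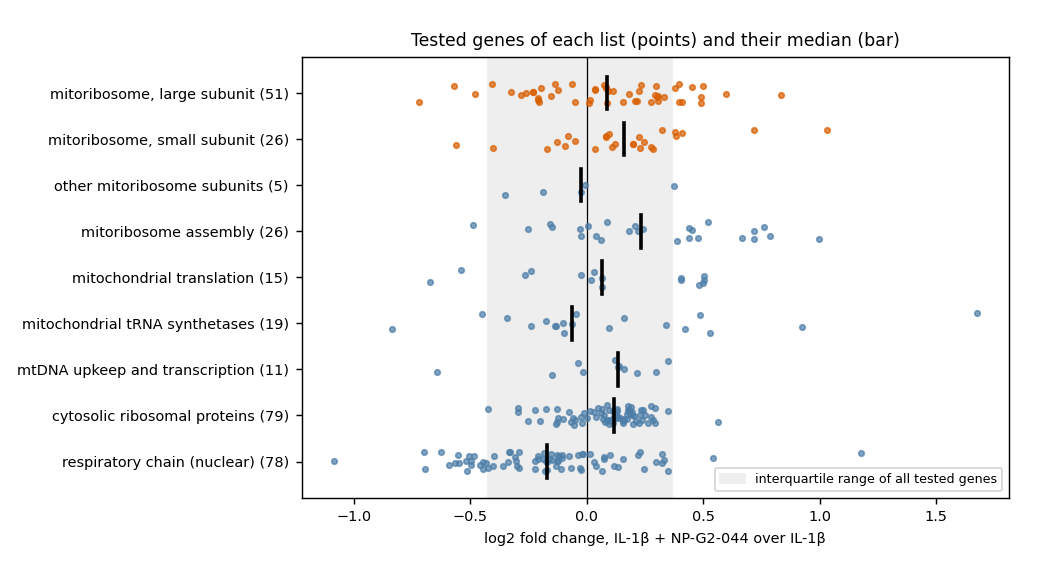
Log2 fold change (ILN over IL, x axis) of each tested gene (points) and the median (bar) for the 2 subunits of the mitochondrial ribosome (orange) and for 7 related lists (blue), the number of genes in brackets; the grey band is the interquartile range of all tested genes. Cytosolic ribosomal proteins bunch near 0.12, the members spread more widely around 0.10, and respiratory chain genes sit lower, at a median of −0.17.

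Members often stood head to head with another gene. Among the 69 with a RefSeq promoter, 26 (37.7%) had a start within 1000 bases of the start of a gene on the opposite strand pointing away, against 20.2% of tested genes. For 24 of them the neighbour was tested, and member and neighbour changed in the same sign in 12. Mrps18b, with its log2 fold change of 1.03, faced Ppp1r10 at −0.45, and Mrpl57 at 0.60 faced the mitotic gene Ska3 at −1.14. Mrpl18 at −0.72 faced the chaperonin gene Tcp1 at −0.09, and Mrpl51 at −0.21 faced the condensin gene Ncapd2 at −1.69. Mrpl46 and Mrps11 share 1 such promoter, 42 bases apart, and had log2 fold changes of 0.08 and −0.05, neither past the test.

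**Figure D4:**
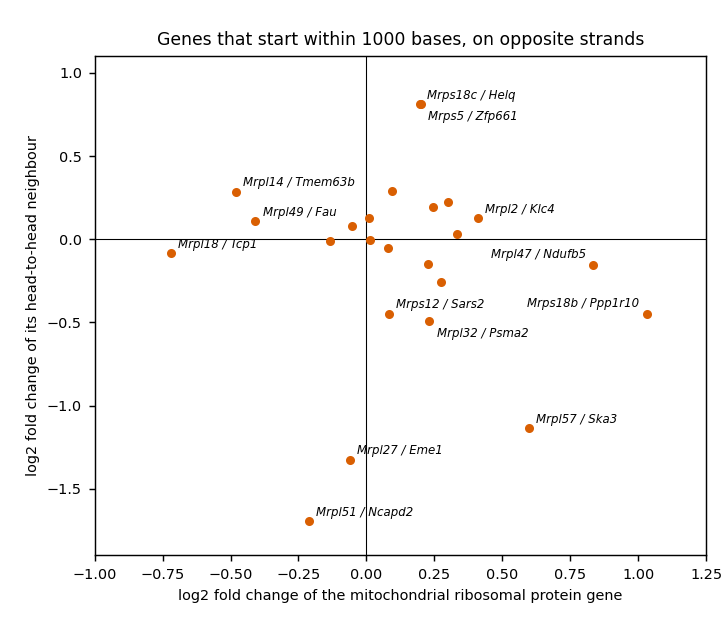
Log2 fold change (ILN over IL) of a member (x axis) and of its tested head-to-head neighbour (y axis), 1 point for each of 24 members, with Mrpl46 and Mrps11 shown from both sides. The points do not follow the diagonal, and 12 of 24 lie in the quadrants of like sign.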

How the data were processed

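By the methods, RNA extraction, sequencing and the quantification of libraries were done at BGI, and the steps that gave the expression values are not described there. Here 6 libraries were analysed, 3 IL and 3 ILN by their labels. The submitters' processing notes name cutadapt, HISAT2 2.0, StringTie and build mm10, without their roles, and the sources used here do not give the annotation. The deposited expected counts, estimated by the authors per gene and not normalized, were not whole for 10.17% to 11.06% of genes per library. The deposited TPM and FPKM were scaled by the authors for length and depth, and FPKM and the authors' group means entered no test. Symbols, Entrez IDs and levels are those of the table, coordinates are from GENCODE vM21 (GRCm38, the assembly of mm10) and promoters from RefSeq GRCm38.p6.

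Counts were rounded, filtered with filterByExpr (minimum count 10), scaled with TMM and compared by the quasi-likelihood test of edgeR 4.0.16 (robust, R 4.3.3), 3 libraries against 3 without covariates, with Benjamini-Hochberg adjustment over 11983 genes. The steps were tested on simulated counts. No pair of libraries agreed within sampling noise. Alternatives were other scalings and filters, a test against a fold change of 1.2, DESeq2 1.42.0, limma 3.58.1 (voom, and log2 TPM with a pseudocount of 1 or 0.1), a loess trend on gene length, the replicate number as a block, and each library left out. The members and all lists were chosen with earlier results of these data known. Members named are those past both cutoffs, the 6 largest rises and falls, the 4 highest and lowest levels, the 4 nearest to no change, the S18 and stalk genes, Mrps30 and Mrps36, and of each other list the largest rise and fall, of which 1 result is not reported here. The precision of a value is limited by 3 libraries a group and by 16615824 to 17735860 reads per library.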

Additional observations from a re-analysis of the deposited data

How the results depend on the processing

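Against a fold change of 1.2, 17 members were higher and 7 lower, where 52.7% of all genes were called. No member (0) passed both cutoffs with limma on log2(TPM + 1) or log2(TPM + 0.1), where the log2 fold change of Mrps18b came out below 1. The filter at 10 CPM tested 77 members and gave medians of 0.0676 over them and 0.0947 over the small subunit. Leaving out each library in turn, the median over the members ranged from 0.1004 to 0.1417, the latter without IL 1. Of the 78 members, 35 to 41 were then higher and 17 to 20 lower. In the same refits 38.7% to 39.2% of all tested genes were higher and 38.4% to 39.0% lower. Summed CPM gave a ratio of 1.0786 in place of 1.04, and the cause was not tested.

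Members near 0 changed sign. Mrpl41 was at −0.0143 under the 10 CPM filter, −0.0174 and −0.0179 with limma on log2(TPM + 1) and log2(TPM + 0.1), and −0.0216 after the loess trend, and between −0.0195 and 0.0395 with a library left out. Mrpl40 was at −0.0183, −0.0159, −0.0161 and −0.0202 in the same order, and between −0.0328 and 0.0361. Mrpl53 lay between −0.0132 and 0.0888 with a library left out.

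The replicate numbers do not pair the libraries: deviations of same-numbered libraries correlated at −0.093, −0.024 and 0.026. With the replicate block 39 members were higher and 20 lower and 79.3% of all genes were called. DESeq2 called 35 members higher and 18 lower, where 36.8% of all genes were higher and 37.3% lower. The alternatives were applied to the other lists after the data had been seen. The 7 calls that did not hold in every refit were those of Mrpl4, Mrpl16, Mrpl19, Mrpl34, Mrpl48, Mrps28 and Mrps31.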

Other observations

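In a few members 1 library stood apart from the others of its group. Mrps12 was at 50.06 and 51.06 TPM in IL 1 and IL 2 and at 35.88 TPM in IL 3, while its ILN libraries were at 46.35, 46.12 and 46.23 TPM, and its log2 fold change was 0.08 (adjusted p = 0.424, edgeR). Mrps28, with the fewest reads of the members, was at 24.55 and 23.51 TPM in ILN 1 and ILN 2 and at 30.41 TPM in ILN 3, against 22.31, 21.49 and 21.85 TPM in IL. Its log2 fold change of 0.27 (adjusted p = 0.0269, edgeR) ranged from 0.15 to 0.35 with a library left out. Both genes were named after their values were seen.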
